A study of Homo sapiens with 2 samples.

Results

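The RUNX1 gene and its surroundings held 20 of the 13591 peaks found by RUNX1 ChIPseq, the sequencing of DNA that an antibody brings down with the protein bound to it, in MCF10A cells, a non-tumorigenic human mammary epithelial line. The 20 peaks were chosen by the position of the summit, the base with the most tags, which had to lie inside the RUNX1 interval of the RefSeq table (chr21:34787801-35049302, GRCh38, 261.5 kb, minus strand) or at most 200 kb from it. Of these, 17 lay inside the gene and 3 in the flanks. As the choice rests on where peaks were found, peak numbers are given as a description, without a test. The nearest peaks left out lay 253.1 kb and 345.8 kb from the gene, with 33 and 26 tags.

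Both libraries came from the same RUNX1-deleted MCF10A line, transduced with lentiviruses that express RUNX1 inducibly, and both cultures had 1 µg/ml doxycycline for 24 hours. There was 1 library of DNA precipitated with an anti-RUNX1 antibody (80338845 tags kept) and 1 of input DNA without antibody (87410774 tags kept). Knockout lines of the study were grown from single cell colonies, and no library from uninduced, parental or RUNX1-deleted cells without the vector was analysed here. With 1 library of each kind there is no replicate, and the intervals below are exact 95% Poisson intervals that cover counting error only.

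RUNX1 is a DNA-binding transcription factor of the RUNX family. It pairs with CBFB, which strengthens its hold on DNA, and the pair can turn genes on or off. The gene is read from a distal and a proximal promoter, far apart, which give proteins with different first residues but the same DNA-binding domain, and RUNX factors can bind at promoters of RUNX genes. The coding sequence is broken up into short exons between long introns. The study asked with this ChIPseq where RUNX1 binds, NOTCH3 in particular. Its first ChIPseq, of endogenous RUNX1, had not shown strong binding, possibly from low expression or low antibody affinity according to the paper. It then turned to cells that express RUNX1 inducibly. In these cells the gene itself is a special case, since the paper describes it as deleted and a copy was added on a lentiviral vector. How much of the gene was removed was not determined here.

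Sequences that the study lists for deleting and for cloning RUNX1 are given first. They were not traced here to the line that was sequenced. The study's oligonucleotide list holds a pair of guide oligos, made to delete RUNX1. Their 20-base spacers are printed 5′ to 3′ with the 12 bases next to the PAM side in capitals.
CRISPR67_AML1(h): gatttcttTTTAGGTTGCAG
CRISPR69_AML1(h): ttacaatgAGGATTCTCTCT
The same list holds primers for cloning RUNX1 variant 1 (AML1 is an older name of the gene), shown from the start codon and, on the opposite strand, from the stop codon, with these codons in capitals. They mark the ends of the coding sequence of that variant in an expression plasmid. Which variant the inducible vector carries is not given in the sources used here.
Forward primer: ATGgcttcagacagcatatttg
Reverse primer: TCAgtagggcctccacacggcctc

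The 20 peaks fell into unlike sets. Inside RUNX1, 6 peaks had a pileup, counted as extended ChIP tags at the summit, of 132 to 148 tags. The other 11 peaks in the gene had 13 to 69 tags and the 3 flanking peaks had 19 to 30, so that no member lay between 69 and 132. A limit of 100 tags, chosen with these values known, therefore separates the sets. In the whole list 15 peaks, or 0.11%, reached 100 tags, and apart from those in RUNX1 none did so where the input was low, that is, less than 2 times the genome background.

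**Figure D1:**
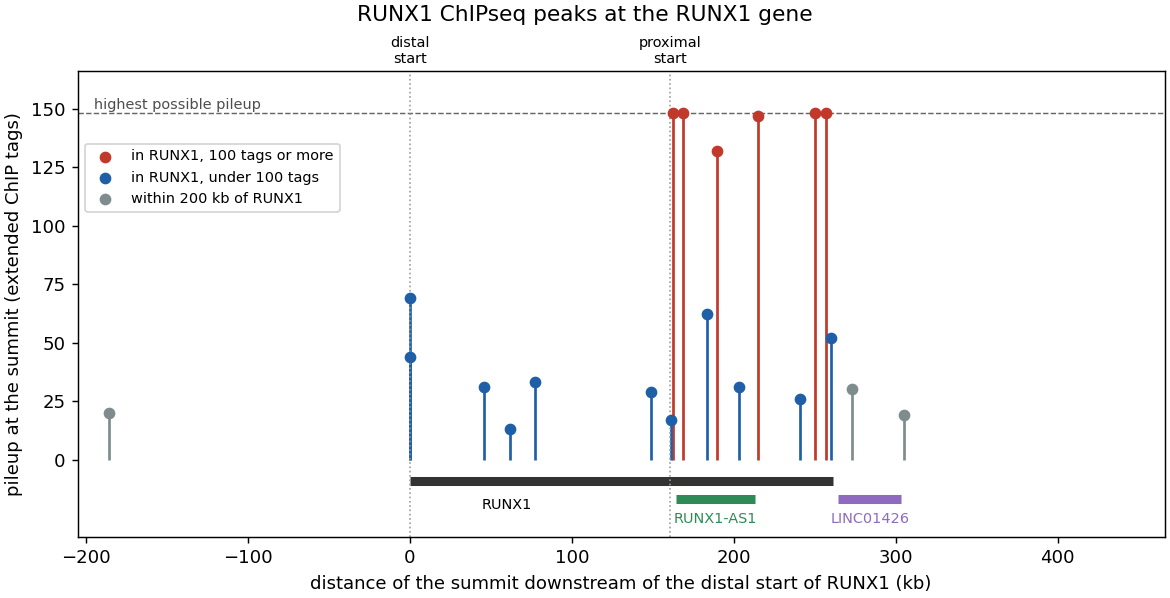
Pileup at the summit (extended ChIP tags, vertical axis) of the 20 peaks against their distance downstream of the distal start of RUNX1 (kb, horizontal axis), 1 stem for each peak, with gene intervals as bars below. The 6 red stems of 132 to 148 tags all stand downstream of the proximal start, and peaks of at most 69 tags stand over the whole gene and on both sides of it.

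The tall peaks were placed only in the part of RUNX1 that is downstream of the proximal start. The proximal start lies at base 34888699, from the RefSeq start-site table, and divides the gene into 160.6 kb between both starts and 100.9 kb downstream. Of the 17 peaks in the gene, 6 lay between the starts, none of them tall, and 11 lay downstream, 6 of them tall. In the order of transcription the tall peaks were found at chr21:34886810-34887121, chr21:34880533-34880736, chr21:34859450-34859597, chr21:34834379-34834627, chr21:34799276-34799487 and chr21:34792110-34792638. Their pileups were 148, 148, 132, 147, 148 and 148 tags in that order. Their fold enrichments, ChIP over local background, were 31.9, 46.5, 41.5, 46.2, 31.9 and 31.9. The first summit was 1761 bp downstream of the proximal start and the last 94.5 kb further on.

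The heights of the tall peaks are lower bounds. Only 1 tag was kept per position and strand, and each tag was extended to 74 bp, so a pileup cannot pass 148 tags. Of the 6 tall peaks, 4 stood at that value, the peak of 147 tags stood 1 below it, and 1 had 132 tags. Repeated tags are dropped below that value too, so the heights of 132 and 147 tags are also lower bounds. The fold enrichments are limited in the same way. At 148 tags, folds of 31.9 and 46.5 differ only through the local background. Differences in height among the 6 were therefore not detectable, and no counting interval is given for them.

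The tall peaks were also narrow. Their widths were 312, 204, 148, 249, 212 and 529 bp in the order of transcription, with a median of 230.5 bp. The median width of the whole list was 153 bp, at a median of 18 tags. Peaks of 60 tags or more outside RUNX1 are a closer comparison, and 29 of them had an input level less than 2 times the genome's. Their median width was 472 bp, with quartiles of 385 and 635 bp. Of the 6 tall peaks, 5 were narrower than the lower quartile and 1, of 529 bp, was wider than the median. Height chose the 6, which makes this a description and not a test.

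**Figure D2:**
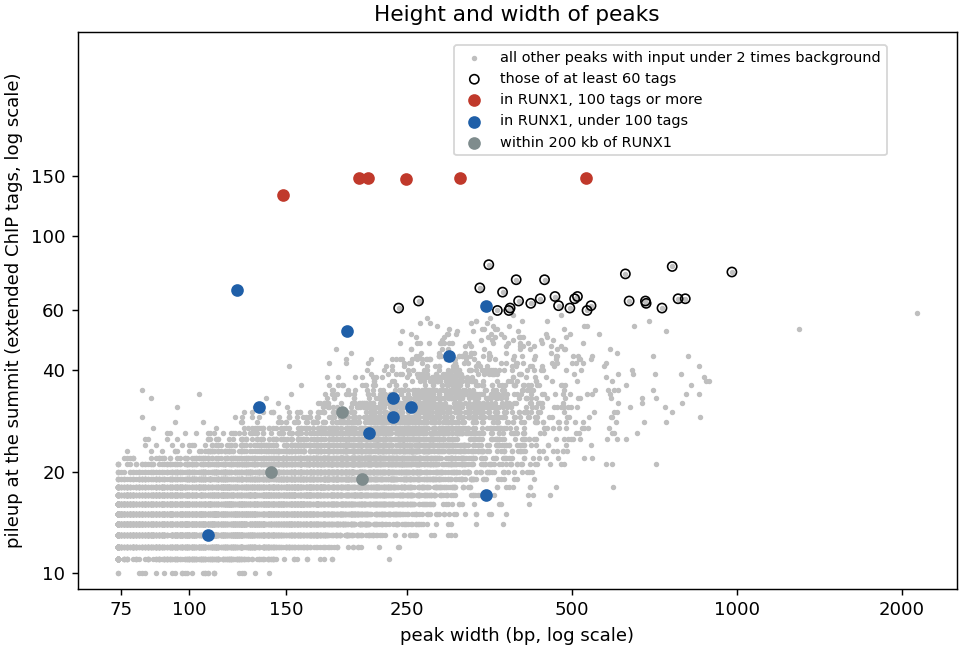
Width (bp) and pileup (extended ChIP tags) of low-input peaks, both on log scales, with the 20 peaks at RUNX1 in colour and other peaks of 60 tags or more circled. Of 6 peaks with at least 60 tags and at most 250 bp, 5 lie in RUNX1, 4 of them red and 1, the blue point of 122 bp and 69 tags, at the distal start.

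A single value, tags per 100 bp of peak width, joins height and width. Among the 12428 low-input peaks of the list, 6 peaks passed 42.7 tags per 100 bp, the highest value outside RUNX1, and all of them lay in RUNX1. They had 47.4 to 89.2 tags per 100 bp as deposited. They were 5 of the tall peaks and a peak of 69 tags at the distal start, which had 56.6 tags per 100 bp. The widest tall peak, of 529 bp, had at least 28.0. These values are lower bounds for the tall peaks. The tall peaks therefore cannot be put in order by them, either among themselves or against the peak of 69 tags.

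That peak, at chr21:35048812-35048933, was 122 bp wide with its summit at 35048879. Its pileup was 69 tags (53.7 to 87.3), its fold enrichment 21.9 and its −log10 q 70.7. Repeated tags were dropped here too, so the 69 tags may be a lower bound, and the interval covers kept tags only. It was the highest of 4374 low-input peaks that were no wider than itself, and the next had 35 tags. As deposited, its 69 tags were below the 132 to 148 of the tall peaks, and its width was below their 148 to 529 bp. It lay 423 bp downstream of the distal start, taken as the outer end of the gene's RefSeq interval, on the far side of the proximal start from all of the tall peaks.

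The input library shows how much DNA of each place the cells held before precipitation. The local background of each peak, recovered from its pileup and fold enrichment, was the genome background or a whole number of input tags in all 13591 peaks. At 3 tall peaks (those of 312, 212 and 529 bp) the input library had exactly 4 tags over the summit (exact 95% Poisson interval 1.09 to 10.2), scaled to 1.67 times the genome background of 2.20 tags. At the other 3 the background was the genome value, which allows at most 2 input tags over the summit and at most 32 within 1 kb. At the 122 bp peak it was the genome value too. In the ChIP library the 6 tall pileups were 59.9 to 67.2 times the genome background as deposited, values that are lower bounds too.

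**Figure D3:**
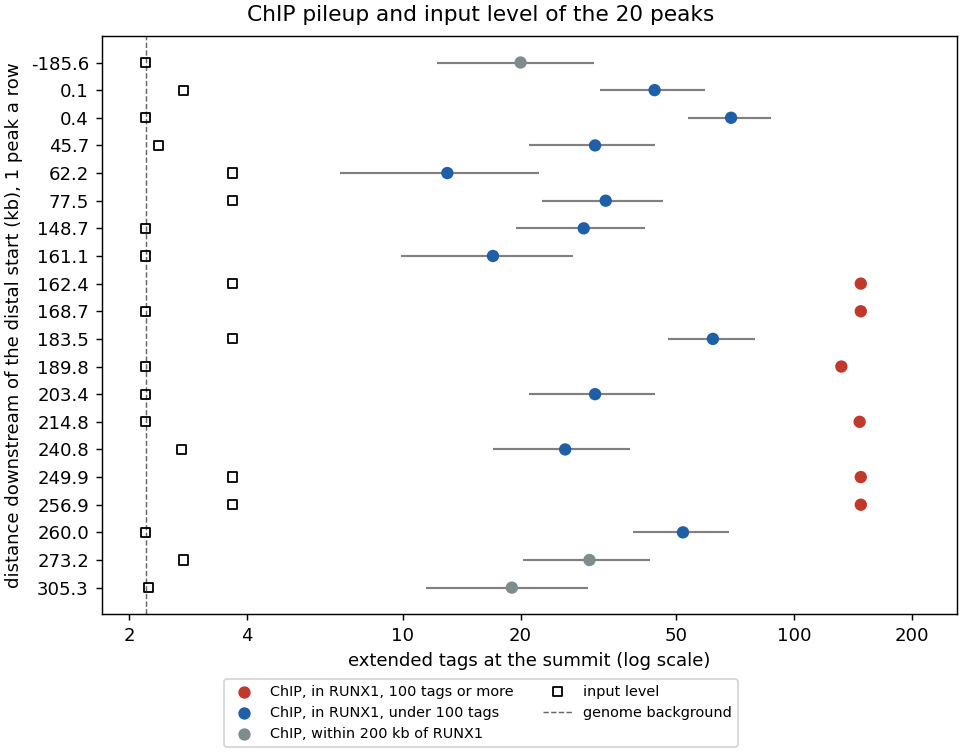
ChIP pileup (filled points, with exact 95% Poisson intervals except for the tall peaks, whose height is limited) and input level (open squares) in extended tags at the summit, on a log axis, for the 20 peaks ordered by distance from the distal start. Input squares lie between the genome background, the dashed line, and 3.68 tags in every row, while ChIP points run from 13 to 148.

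Across all 20 peaks the input stayed under 2 times the genome background. The input level was at the genome background in 9 peaks, against 38.9% of the list, and it reached no more than 1.67 times background, a value that 20.4% of the list reached or passed. The median input ratio was 1.33 in the tall peaks and 1.05 in the other 14, beside 1.11 in the whole list. Exactly 4 input tags stood over the summits of 3 of 6 tall peaks and 3 of 14 others, those of 62, 33 and 13 tags. With counts this low and capped heights, a relation between input and ChIP height was not tested. The part of the added RUNX1 gene in the tall and narrow peaks was not tested. Exon positions, which would place them on or off the coding sequence, were not used here.

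The 14 peaks that were not tall are, by height alone, those left as candidate sites of RUNX1 binding at its own gene. Among them, the narrow peak at the distal start stood with the tall peaks in tags per 100 bp. Whether it lies on coding sequence of the added gene was not tested, so values without it are given below. The median pileup of the 14 was 30.5 tags, beside 18 in the whole list. Of the 14, 12 were above the list's median and 10 above its upper quartile of 23 tags, which 22.1% of all peaks passed. A fold enrichment of at least 10 was reached by 4 of the 14, and by 10 of all 20 members, against 3.82% of the list. At least 60 tags were reached by 2 of the 14, and by 8 of the 20, against 0.662% of the list. Their median width of 210 bp and their median of 14.1 tags per 100 bp lay within the quartiles of the list, 107 to 219 bp and 9.46 to 15.6 tags per 100 bp. Without the narrow peak at the distal start, the 13 others had a median of 30 tags and 213 bp and at most 26.8 tags per 100 bp. Of these 13, 3 reached a fold enrichment of 10 and 1 reached 60 tags.

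At the distal start, the promoter used for the longest transcripts, there was a pair of peaks. The outer peak, at chr21:35049095-35049392, covered the start itself and reached 90 bp beyond the gene. It was 298 bp wide with 44 tags (32.0 to 59.1), a fold enrichment of 12.0, and 3 input tags over its summit, which lay 79 bp downstream of the start. Its 14.8 tags per 100 bp lay within the quartiles of the list, 9.46 to 15.6. The inner peak, with its summit 344 bp further on, is the narrow one of 69 tags described above. The counting intervals of their kept tags overlap, whereas their widths differed, at 122 and 298 bp. With repeated tags dropped, a difference in height between them was not tested.

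At the proximal start the pattern was different. The window of 250 bases before and 50 bases after the start held no peak. A weak, broad peak lay just downstream, at chr21:34887919-34888266, with 17 tags (9.90 to 27.2), a width of 348 bp and a fold enrichment of 5.62, its summit 510 bp from the start. Of all peaks, 53.0% had a higher pileup, and its 4.89 tags per 100 bp were the lowest among the 20. The first tall peak followed 1.25 kb further downstream. Start-site windows in general seldom held a peak, at 1.65% of 35116, and none of the 9 windows in the region did. These do not include the distal start of RUNX1, which has no window in the table and was covered by a peak.

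**Figure D4:**
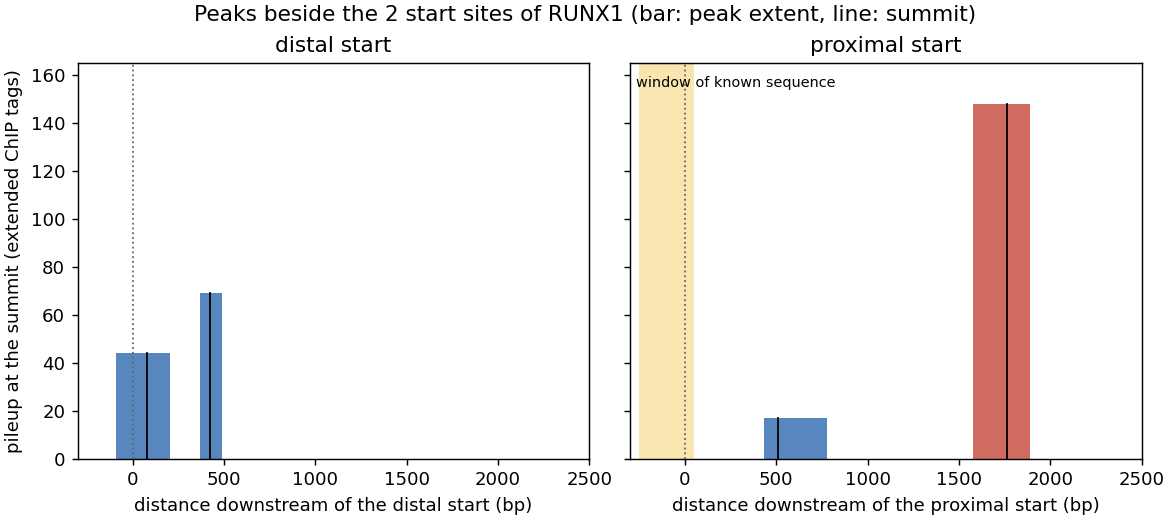
Peaks within 2500 bp downstream of the distal start (left) and the proximal start (right) of RUNX1; bars span each peak and rise to the pileup at its summit (extended ChIP tags), black lines mark summits and the yellow band the window of known sequence. A peak of 44 tags covers the distal start with a narrow one of 69 tags behind it, whereas the band at the proximal start is empty and is followed by a broad peak of 17 tags and a tall one of 148.

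The bases before the proximal start are shown next. They held no peak, as was the case for most start-site windows. RUNX factors bind a short core sequence. Only the form TGTGGT was searched here, with ACCACA on the other strand. Neither was found in the whole 300-base window of RUNX1, as in most such windows. Of all 35116, 13.1% held at least 1 match on either strand. The window was rich in G and C, at 72.0%, against a median of 58.7%. The 250 bases before the start lie at chr21:34888700-34888949 and are given 5′ to 3′ on the minus strand (RefSeq, GRCh38.p14), with no capitals as there was no match.
RUNX1 proximal start: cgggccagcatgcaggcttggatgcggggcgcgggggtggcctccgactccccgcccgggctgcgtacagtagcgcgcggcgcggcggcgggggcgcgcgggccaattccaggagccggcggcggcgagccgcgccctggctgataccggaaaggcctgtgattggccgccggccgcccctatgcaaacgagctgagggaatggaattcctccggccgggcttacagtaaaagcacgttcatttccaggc

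The long first part of RUNX1, between the starts, held 4 further peaks. They lay 45.7, 62.2, 77.5 and 148.7 kb downstream of the distal start. Their pileups were 31 (21.1 to 44.0), 13 (6.92 to 22.2), 33 (22.7 to 46.3) and 29 tags (19.4 to 41.6), and their fold enrichments were 9.47, 2.99, 7.27 and 9.37. The intervals of the 3 higher ones overlap widely. The peak of 13 tags, at chr21:34987097-34987204, had 4 input tags over its summit and a −log10 q of 1.41, and it was the weakest member and the only one lost at a q limit of 0.01. The largest gap without a peak inside the gene, 71.2 kb, lay in this part.

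Downstream of the proximal start, 4 peaks under 100 tags lay among the tall ones, besides the weak peak beside that start. The highest was at chr21:34865564-34865911, inside both RUNX1 and RUNX1-AS1, a long non-coding RNA gene within it. It had 62 tags (47.5 to 79.5) over 4 input tags, a 13.5-fold enrichment and a width of 348 bp. Its 17.8 tags per 100 bp were above the upper quartiles of the list, 15.6, and of the 29 peaks of similar height elsewhere, 16.4, and below the 72.5 and 89.2 of its tall neighbours 14.9 kb upstream and 6.26 kb downstream. The next, at chr21:34789218-34789411, lay 1.54 kb from the far end of the gene and had 52 tags (38.8 to 68.2), a 16.6-fold enrichment and a width of 194 bp. It ranked 40 of 12428 in tags per 100 bp, at 26.8, and stood 3.09 kb from the widest tall peak. The last 2 of these, of 31 and 26 tags (21.1 to 44.0 and 17.0 to 38.1), were 254 and 213 bp wide, and their intervals overlap. RUNX1-AS1 overlapped 4 summits in all, 2 of them tall. ChIP peaks carry no strand, so these cannot be given to either gene.

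Around the gene, the 3 flanking peaks were modest. Past the far end of RUNX1, a peak at chr21:34775987-34776176 lay inside LINC01426, a long non-coding RNA gene, 11.7 kb from RUNX1, with 30 tags (20.2 to 42.8). A peak at chr21:34743882-34744088, with 19 tags (11.4 to 29.7), lay 43.8 kb away. Before the distal start there was 1 peak in 200 kb, at chr21:35234822-35234962, 185.6 kb out, with 20 tags (12.2 to 30.9). No summit lay in the neighbouring genes RCAN1, CLIC6, LINC00160, LOC107985515, RUNX1-IT1 or LOC124905015. The peak of 19 tags did overlap the end of LOC107985515, with its summit just outside.

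Peaks were dense inside the gene and not around it. RUNX1 held 65.0 peaks per Mb, or 42.1 without the tall peaks, against 7.50 in the 400 kb of flanks and 5.03 over the list's effective genome of 2.70 Gb. On chromosome 21 past the ribosomal RNA genes the density was 4.55 per Mb. Summits in RUNX1 were a median of 11.9 kb apart, and neighbouring summits in the list 77.6 kb. These are counts of a region picked for its peaks and no test was made.

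Among 20056 protein-coding genes, RUNX1 held the most peaks within its interval when all were counted. Without the tall peaks it kept 11, and NAV2, ASAP1, KAZN, ABLIM1 and ERC2 had more, with 12 to 16, while RANBP2 also had 11. All of these genes, named after their counts were seen, have longer intervals, of 370 to 1225 kb. Per 100 kb RUNX1 had 4.21 such peaks and the others 0.980 to 3.58.

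The peaks most like the tall ones elsewhere were lower and mostly wider. The 5 highest outside RUNX1 with low input were nearest to LHX2, CFAP99, DLG1, GH1 and FAM181A. They had 82, 81, 78, 77 and 74 tags and were 352, 761, 978, 625 and 445 bp wide. Narrow and high together was seen at EEF1A1, the gene of a translation elongation factor, with 61 tags (46.7 to 78.4) in 241 bp, the only low-input peak outside RUNX1 with 60 tags or more in 250 bp or less. The peak at RNU6-1, a U6 small nuclear RNA gene, came close to it with 64 tags (49.3 to 81.7) in 262 bp. Promoters of both genes are often built into vectors, and their summits lay 51 and 64 bp from the gene ends. PGK1, whose promoter is used likewise, had 14 tags (7.65 to 23.5) in 84 bp. The part of vector sequence in these peaks was not tested.

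Genes of the same family and partner held fewer peaks in all, with at most 28 tags. CBFB, the partner subunit, had 3 peaks inside, of 22, 28 and 17 tags in 79, 94 and 74 bp. Per 100 kb that was 4.17, near the 4.21 of RUNX1 without its tall peaks, a likeness in number only. All 3 were narrower than the list's lower quartile of 107 bp, whereas the 11 other peaks in RUNX1 had a median of 235 bp. RUNX2, which drives bone formation, had 1 peak inside, of 11 tags (5.49 to 19.7), and RUNX3 had none. Of the 4 start-site windows of RUNX2 and RUNX3, 1 was overlapped by a peak. It was the window at the distal start of RUNX2, whose peak lay at chr6:45328144-45328229, with 20 tags (12.2 to 30.9) and a 6.56-fold enrichment, 157 bp before the start. The other window of RUNX2 and a window of RUNX3 had no match to the searched form of the RUNX core and no peak. A further window of RUNX3 had 2 matches and no peak. The RUNX2 window with the peak held 4 matches, 2 of them in the 250 bases before the start, at chr6:45328080-45328329, shown 5′ to 3′ on the plus strand with those matches in capitals (RefSeq, GRCh38.p14). They began 34 bp before and 70 bp after the summit, but none of the 4 matches lay wholly inside the 86 bp peak. A match of letters is a description and not a binding site.
RUNX2 distal start: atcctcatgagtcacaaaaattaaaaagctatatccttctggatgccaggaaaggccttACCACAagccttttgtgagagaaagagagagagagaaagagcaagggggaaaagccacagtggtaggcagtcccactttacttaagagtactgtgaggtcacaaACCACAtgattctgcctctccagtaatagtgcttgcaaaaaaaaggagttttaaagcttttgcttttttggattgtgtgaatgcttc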

How the data were processed

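RUNX1 ChIP DNA and input DNA of doxycycline-treated MCF10A cells were sequenced, 1 library each. Per the submitters' processing notes, reads were aligned with Bowtie2 to hg38, version not given in the sources used here. The authors deposited 1 peak list, made with MACS 2.1.2 at a q limit of 0.05 from tags of 54 bp extended to 74 bp. The deposited pileup is a signal, the count of extended ChIP tags over the summit, and MACS scaled the larger library, the input, by 0.919. The deposited fold enrichment is a ratio, pileup plus 1 over local background plus 1. The deposited p and q are −log10 values for that excess.

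Inverting the deposited fold gave the local background, whose source (genome mean, 74 bp, 1 kb or 10 kb of input) follows from its exact value. A density over 1 kb can equal one over 10 kb. A Poisson tail with the recovered background matched every deposited −log10 p within 5.32e-05. Recovery was tested on simulated data. Python 3.11.15, pandas 2.3.3 and scipy 1.17.1 were used. Genes, start sites and their sequences came from RefSeq GRCh38.p14, which named RUNX1-AS1 and the other genes here by symbol. CBFB, CLIC6 and LOC107985515 had no start-site window. Transcripts, exons and the genome sequence were not used, so the RUNX core was not searched in the peaks.

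The peaks, the 100-tag limit, the gene lists and the comparison set (at least 60 tags, input level under 2 times background) were chosen with earlier results of these data known. Genes named are RUNX1, RUNX2, RUNX3, CBFB, those overlapping the region, RNU6-1, EEF1A1, PGK1 and those nearest to the 5 highest low-input peaks elsewhere. Other settings were q 0.01, a fold of at least 5, merging within 1 kb, other flanks, other height limits and overlap by any base. A limit on both height and width was added after seeing the data.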

Additional observations from a re-analysis of the deposited data

How the results depend on the processing

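Of 20 alternatives over 6 results, 19 left counts within 1.5 times and medians within the spread among the peaks themselves. The number of peaks at RUNX1 was 17 to 25 beside 20, the number of tall peaks 5 to 8 beside 6, and the median pileup of the others 30 to 31 beside 30.5 tags. The median width of the tall peaks was 230.5 bp under both other height limits. The limit of 120 tags chose the same 6 peaks, so there the width could not differ. Leaving the tall peaks out of RUNX1 raised the number of protein-coding genes with more peaks from 0 to 5, by construction, since 6 of its 17 peaks were dropped. The joint limit of at least 60 tags and at most 250 bp, chosen after seeing the data, gave 5 peaks, of which 4 were tall. No paired analysis was possible because each group consisted of 1 library.

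Heights of the tall peaks are limited by the duplicate filter and cannot be ranked. Without replicates, no height carries an error beyond counting.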
